A study of Mus musculus with 12 samples.

Results

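Molecular chaperones are proteins that help other proteins fold, and their genes are described here in regulatory T cells (Treg cells), a kind of CD4 T cell that depends on the transcription factor Foxp3. Genes were taken by name: symbols beginning with Hsp90, Hspa, Hspb, Hspd1, Hspe1, Hsph1 or Dnaj, and the 8 genes of the cytosolic chaperonin (Tcp1, Cct2, Cct3, Cct4, Cct5, Cct6a, Cct7 and Cct8), leaving out named pseudogenes and genes whose mean over the 12 libraries was under 1 CPM (counts scaled to library size). Among the 55453 genes listed, 97 fitted the names, 14 of them were pseudogenes, 28 fell under the limit and 55 remained. Just inside the limit were Hsph1 at 1.11 CPM, Hspa1l at 1.41 CPM and Hspbp1 at 1.46 CPM, and among those outside it were Dnajc24 at 0.967 CPM and Dnajb9 at 0.702 CPM. The names do not make a single function: Hspb11 is a protein of intraflagellar transport, and Hspbap1 and Hspbp1 are partners of heat shock proteins rather than small heat shock proteins.

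Hsp70 proteins, encoded by the Hspa genes, hold unfolded stretches of protein and release them in a cycle driven by ATP. J-domain proteins, encoded by the Dnaj genes, bring clients to Hsp70 and start that cycle, while Hsp110 proteins (Hspa4, Hspa4l, Hsph1) reset it. Hsp90 proteins act on nearly folded clients such as kinases and receptors, the chaperonin of Tcp1 and the Cct proteins encloses actin and tubulin as they fold, and Hspd1 with its lid Hspe1 does the same work in mitochondria. Heat shock factors switch many of these genes on after heat or misfolding, and the endoplasmic reticulum (ER) has its own set under the unfolded protein response.

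The cells were sorted by flow cytometry for CD4 and Foxp3 from C57BL/6 mice matched for age and sex, with no age given, and were lysed without further treatment. The 4 groups of 3 libraries were labelled as male CNS4 knockout (KO), male CNS4 floxed or wild type (FL), female CNS4 knockout heterozygotes (KO) and female CNS4 floxed heterozygotes (FL). CNS4 is a distal enhancer of Foxp3, and the design asked which genes differ between mice without and with it. Foxp3 is X-linked, so a heterozygous female carries altered and unaltered copies, and the labels do not say how the female cells were chosen with respect to the active copy. The organ is not spelled out in the labels beyond the letters Thy in the sample titles and the thymic Treg cells of the series title, and since no label ties a library to 1 mouse, the p-values reflect only how much these libraries vary, which may be technical.

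Library totals ran between 12423340 and 30244500 counts in genes, the largest being male KO 3. Of the reads counted in protein-coding genes, 95.8 to 97.2% in each library belonged to plus-strand genes, so the 36 members on the plus strand and the 19 on the minus strand are given apart and minus-strand levels are not compared with the others. Female KO libraries 1 and 3 stood apart from the other 10: their scores on the first principal component were 98.9 and 93.4, against -72.9 to 33.1 elsewhere, and mitochondrially encoded genes took 4.04 and 3.40% of their counts, against 1.17 to 2.77%. A rank correlation across genes between GC content and the deviation of the library was -0.355 and -0.257 in those libraries and -0.0995 to 0.350 in the others. Markers of myeloid and dendritic cells, 23 genes, summed to 610 to 5896 CPM in male KO, 356 to 5401 CPM in male FL, 1940 to 3079 CPM in female KO and 691 to 1970 CPM in female FL libraries, while 13 Treg markers summed to 12228 to 16218 CPM over all libraries. All 16 myeloid markers that could be tested had log2 fold changes above 0 (median 0.72) with none called, and Fcgr1 and Aif1 were at 0 in all male KO, Cd68 and Fcgr1 in all male FL, and Cd14 and Xcr1 in all female libraries. Double-positive thymocyte markers, 10 genes, summed to 399 to 725 CPM in male KO, 531 to 663 CPM in male FL, 719 to 1289 CPM in female KO and 669 to 853 CPM in female FL libraries. The part of these other cells in the results was not tested. In a sorted bulk sample, fewer cells of a type and less RNA per cell cannot be told apart.

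Across both sexes 3 members rose in KO over FL cells: Cct3, a subunit of the cytosolic chaperonin, and the cytosolic Hsp90 genes Hsp90aa1 and Hsp90ab1. No member fell past the threshold, set at an adjusted p of 0.05 (edgeR, quasi-likelihood, p-values adjusted by Benjamini-Hochberg across the 12411 genes tested). On the plus strand 1 of 36 members was called, beside 4% of 9473 plus-strand genes tested (3.23% with KO higher). On the minus strand 2 of 19 were called, beside 1.05% of 2850 genes (0.877% with KO higher). Over all tested genes the share was 3.31%, and 2.68% with KO higher. The median log2 fold change was -0.12 over the plus-strand members and 0.04 over the minus-strand members, beside -0.02 over all tested genes. Within males no member was called, beside 0.0242% of all genes, with 3 plus-strand members at an unadjusted p under 0.05 (9.46% of plus-strand genes were) and 4 minus-strand members (3.72% of minus-strand genes). DESeq2 and limma-voom called 1 member each in males, beside 1.89% and 1.43% of all genes. Within females no member was called, beside 0.201% of all genes, with 12 plus-strand members at an unadjusted p under 0.05 (20.6% of plus-strand genes were) and 5 minus-strand members (14.7% of minus-strand genes). In females DESeq2 called 6 members, beside 5.69% of all genes, and limma-voom 33, beside 44%.

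**Figure D1:**
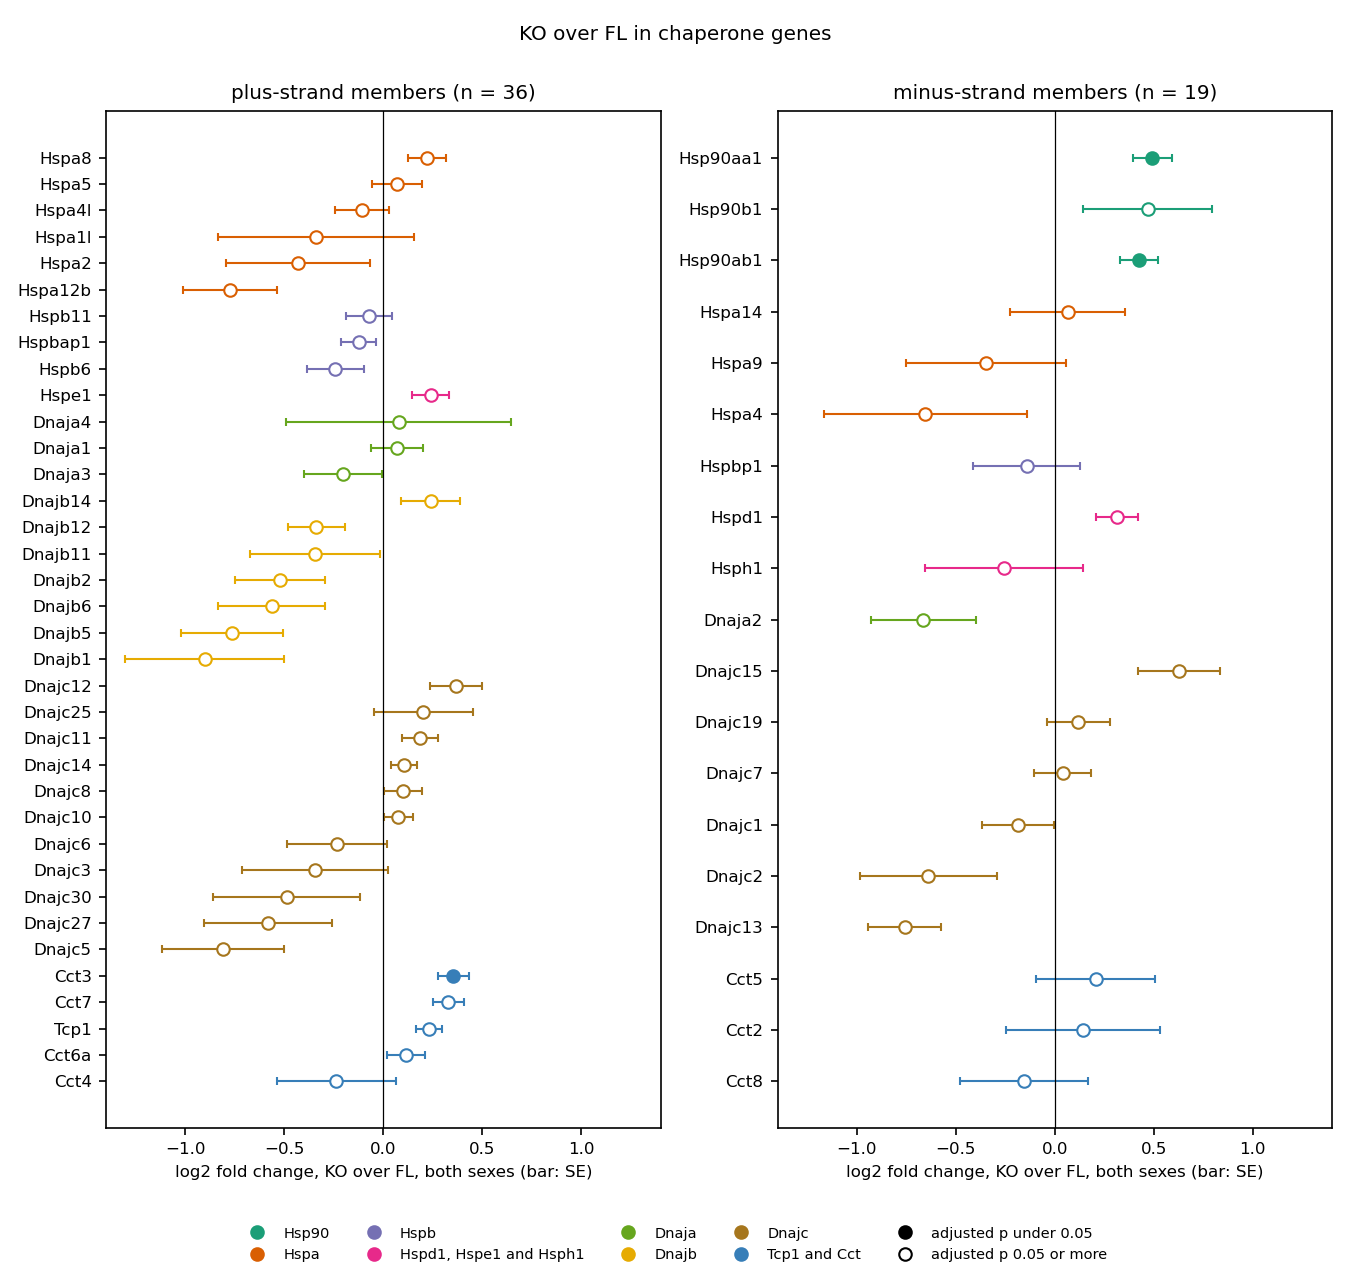
Log2 fold changes of KO over FL across both sexes (horizontal axis) for the 36 plus-strand members (left) and the 19 minus-strand members (right), coloured by name group, with the standard error as a bar. Filled points passed the adjusted p of 0.05, namely Cct3, Hsp90aa1 and Hsp90ab1, while 6 of 7 plus-strand Dnajb genes lie left of 0.

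Levels between genes can be compared only per length, here as CPM per kb of exon over the 12 libraries, and only among plus-strand members. The length is that of all annotated exons of a gene merged, which can exceed that of its main transcript, so the order is approximate. The most abundant was Hspa5, the Hsp70 of the ER, at 343 CPM per kb (219 to 427 over libraries). It was followed by the chaperonin subunits Cct6a at 181 (145 to 217) and Tcp1 at 137 (118 to 160), the constitutive cytosolic Hsp70 gene Hspa8 at 133 (114 to 163), and Cct4 at 117, Cct3 at 116 and Cct7 at 113 CPM per kb. Among J-domain genes the highest were Dnajb1 at 93.5, Dnajc8 at 84.4, Dnajb11 at 73.7 and Dnajc10 at 67.6 CPM per kb. Neighbours in this order overlapped in range over the libraries, except Hspa5 with Cct6a and, far lower, Hspb6 with Hspa2. The lowest were Hspa12b at 0.715, Hspa1l at 0.573 and Dnajc25 at 0.553 CPM per kb. The spread over libraries differed from gene to gene: the highest library was under 1.5 times the lowest for 8 of 36 plus-strand members and over 4 times the lowest for 13.

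**Figure D2:**
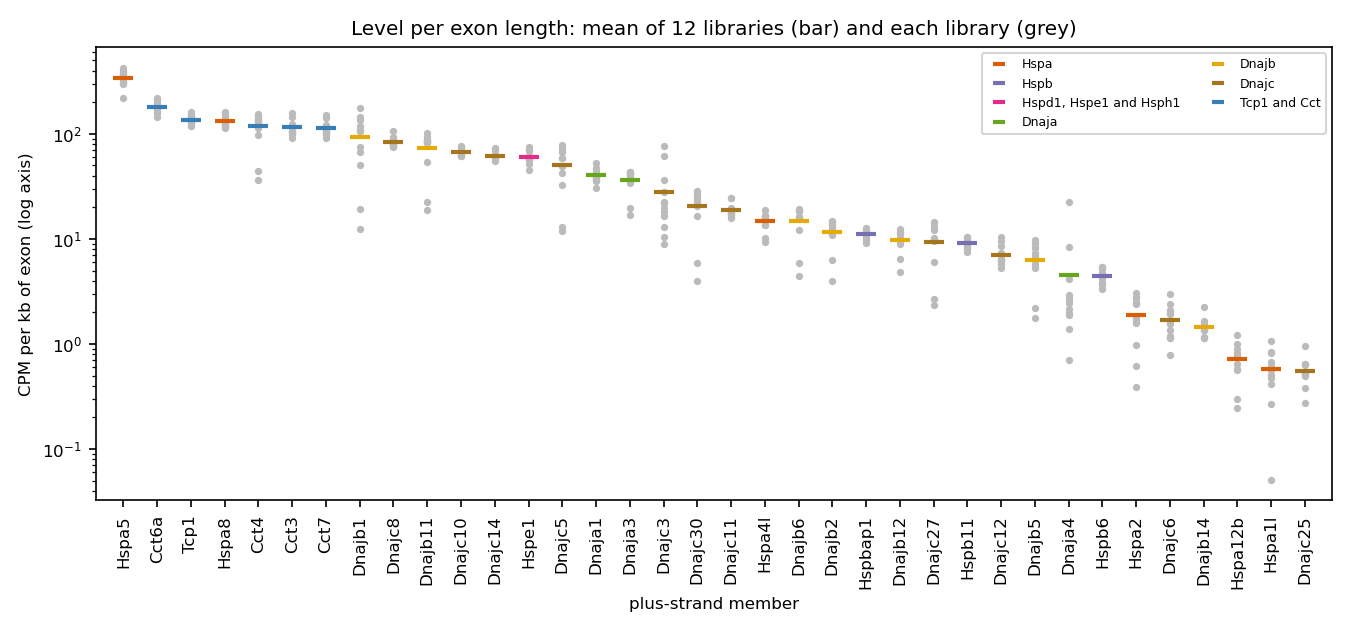
Level per exon length of the 36 plus-strand members, in CPM per kb on a log axis, with each of the 12 libraries as a grey point and their mean as a bar coloured by name group. Hspa5 stands highest at a mean of 343 CPM per kb, and Dnajb1, Dnajb11, Dnajc5, Dnajc3 and Dnaja4 spread widely.

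Of the 5 chaperonin subunits on the plus strand, Cct3, Cct7 and Tcp1 had higher means in KO libraries of both sexes, while Cct4 and Cct6a did so in males only. Cct3 had 785, 740 and 762 CPM in male KO, 587, 683 and 636 CPM in male FL, 1001, 761 and 918 CPM in female KO and 662, 657 and 651 CPM in female FL libraries. Every KO library thus lay above every FL library of its sex, and the highest values were in female KO 1 and 3. Over both sexes this amounted to a log2 fold change of 0.35 (SE 0.08, adjusted p = 0.0340). The male contrast gave 0.26 (SE 0.11, adjusted p = 0.547), and the female contrast 0.44 (SE 0.11, adjusted p = 0.101). Cct7 had 796, 750 and 821 CPM in male KO, 621, 717 and 705 CPM in male FL, 1028, 785 and 963 CPM in female KO and 683, 656 and 704 CPM in female FL libraries. Again the groups did not overlap in either sex, and the log2 fold change of 0.33 (SE 0.08) had an adjusted p of 0.0520. Tcp1, with 771, 729 and 660 CPM in male KO, 599, 673 and 595 CPM in male FL, 741, 749 and 803 CPM in female KO and 628, 654 and 649 CPM in female FL libraries, overlapped in males only and had a log2 fold change of 0.23 (SE 0.07, adjusted p = 0.0859). Cct6a, like Tcp1 and Cct7 a gene that shares exonic bases with the other strand and is uncertain for that, did not overlap in males but did in females (log2 fold change 0.11, SE 0.10, adjusted p = 0.517). Groups that did not overlap in either sex, with KO higher, were found for 2 of 36 plus-strand members (5.56%), both chaperonin subunits, beside 4.75% of plus-strand genes.

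Cct4 set itself apart from the other subunits in female KO 1 and 3. It had 646, 596 and 591 CPM in male KO, 543, 561 and 482 CPM in male FL, 154, 621 and 186 CPM in female KO and 406, 566 and 571 CPM in female FL libraries. All male KO libraries were above all male FL libraries, whereas female KO 1 and 3 were the lowest of all 12 and female KO 2 was above every female FL library. Of the summed CPM per kb of the 5 plus-strand subunits, Cct4 made up 5.73% in female KO 1 and 6.57% in female KO 3, against 15.8 to 21.8% in the other 10 libraries. Cct3 made up 24.6 and 21.4% there, against 15.5 to 17.4%. In the assembled chaperonin the subunits occur in equal numbers, but no protein was measured here. For Cct4 the log2 fold change over both sexes was -0.24 (SE 0.30, adjusted p = 0.673), made up of 0.21 (SE 0.43) in males and -0.68 (SE 0.43) in females. Summed CPM of the 5 subunits was 3462 to 3761 in male KO, 2935 to 3254 in male FL, 3449 to 3701 in female KO and 3055 to 3235 in female FL libraries, so the sum did not overlap in either sex. The 3 minus-strand subunits Cct2, Cct5 and Cct8 averaged 4.42, 3.44 and 5.30 CPM, with log2 fold changes of 0.14 (SE 0.39), 0.21 (SE 0.30) and -0.16 (SE 0.32) that did not pass the test.

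**Figure D3:**
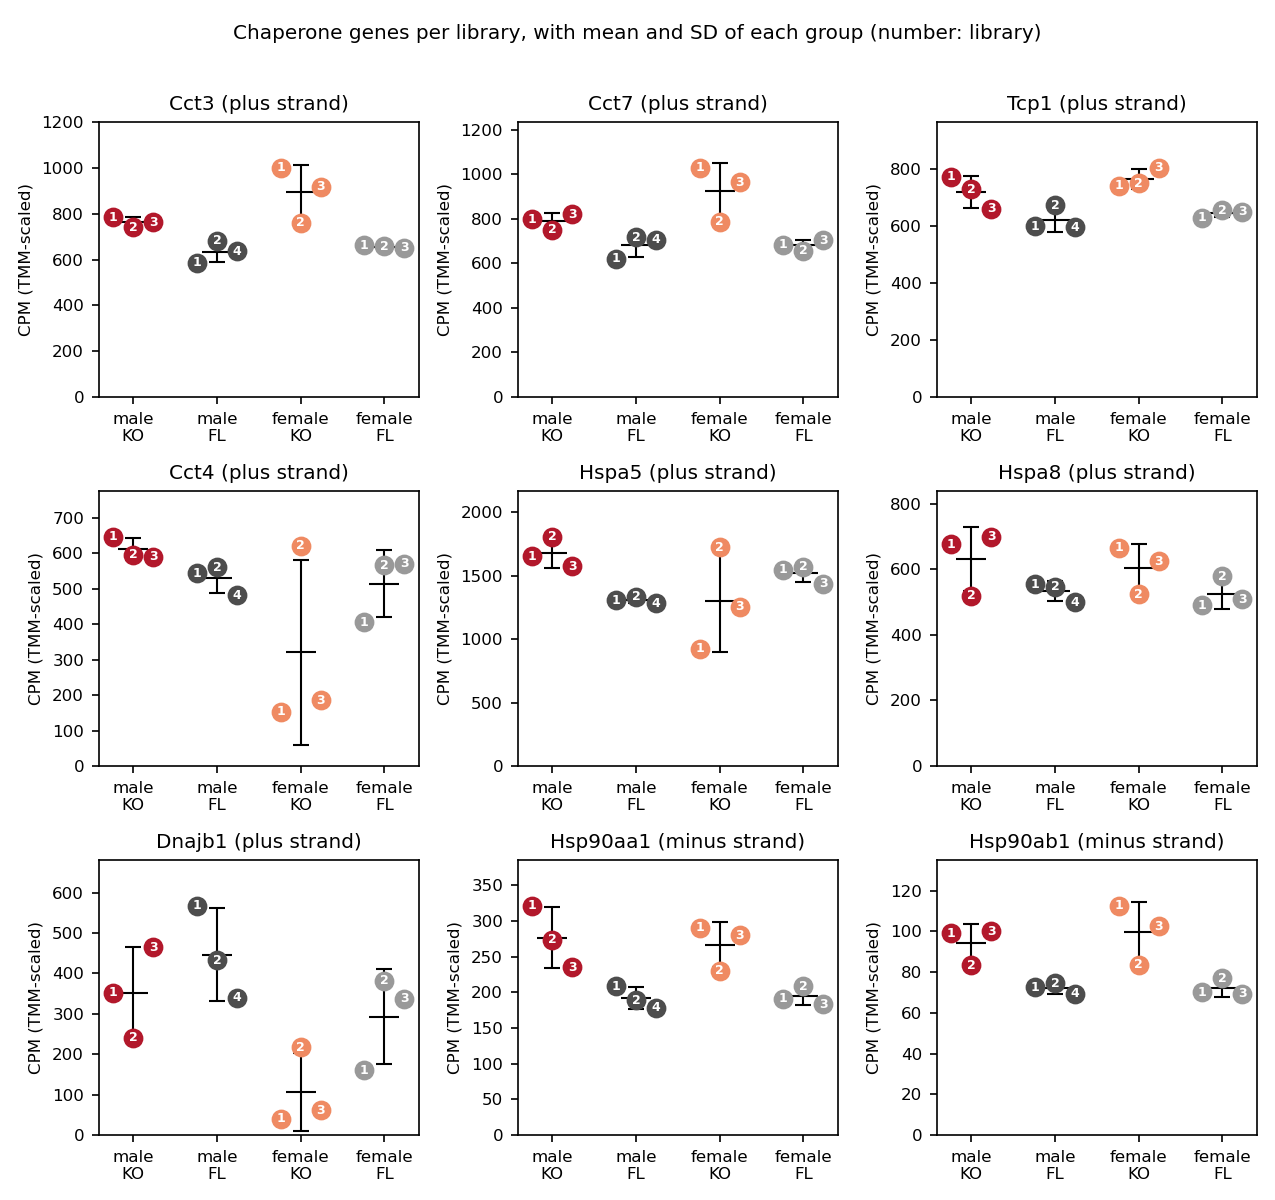
CPM of 9 members in each library (number: library), with KO left of FL within each sex, group means as long ticks and SD as bars, on axes that begin at 0. Cct3, Cct7, Hsp90aa1 and Hsp90ab1 show KO libraries above FL libraries in both sexes, and Cct4 and Dnajb1 show female KO 1 and 3 as the lowest of all.

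Because Cct3 is the only plus-strand member that passed the test, the 150 bases before its RefSeq start are shown (GRCm38.p6, plus strand, chr3:88296985-88297134). They hold no match to the heat shock or ER stress elements described further on, which says only that those letters are not there.
Cct3: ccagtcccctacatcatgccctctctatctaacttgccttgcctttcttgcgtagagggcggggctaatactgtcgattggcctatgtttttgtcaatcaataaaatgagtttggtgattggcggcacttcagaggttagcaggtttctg

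All 3 Hsp90 genes lie on the minus strand. Hsp90aa1, the inducible cytosolic form, had 321, 274 and 235 CPM in male KO, 208, 189 and 178 CPM in male FL, 290, 231 and 280 CPM in female KO and 191, 209 and 184 CPM in female FL libraries. Hsp90ab1, the constitutive cytosolic form, had 99.2, 83.3 and 100.1 CPM in male KO, 72.5, 74.6 and 69.3 CPM in male FL, 113, 83.6 and 103 CPM in female KO and 70.2, 77.1 and 69.4 CPM in female FL libraries. Neither gene overlapped between KO and FL in either sex, and these were 2 of 19 minus-strand members (10.5%), beside 1.44% of minus-strand genes. Among plus-strand genes the share was 4.75%. With Hspd1 the 2 genes were the most counted minus-strand members, and the part of level in this share was not tested. The log2 fold change of Hsp90aa1 was 0.49 (SE 0.10, adjusted p = 0.0238) over both sexes, 0.53 (SE 0.14) in males and 0.46 (SE 0.14) in females. For Hsp90ab1 these values were 0.42 (SE 0.10, adjusted p = 0.0428), 0.38 (SE 0.14) and 0.46 (SE 0.14). Neither gene shares exonic bases with a gene of the other strand. Hsp90b1, the Hsp90 of the ER, averaged 4.35 CPM and had a log2 fold change of 0.47 (SE 0.32, adjusted p = 0.426). These minus-strand values come from the small share of reads counted in such genes, and the part of that counting in the differences was not tested.

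The 3 calls depended on most of the 12 libraries. None of the 3 genes was called when male KO 1, male KO 2, male FL 1, male FL 2, female KO 1, female KO 3 or any female FL library was left out, and Hsp90aa1 alone was called without male FL 4. All 3 were still called without male KO 3, where 6 of 55 members and 785 of 12856 genes were called. They were also called without female KO 2, where 25 members and 22.6% of all genes were. With female KO 1 and 3 both left out the log2 fold changes were 0.24 (SE 0.06, adjusted p = 0.163) for Cct3, 0.39 (SE 0.11, adjusted p = 0.214) for Hsp90aa1 and 0.30 (SE 0.09, adjusted p = 0.236) for Hsp90ab1, the smallest of any setting tried. The sign was the same under all 24 alternatives for Cct3 and all 22 for each Hsp90 gene. Without male KO 2 and male FL 4, the males with the highest myeloid marker sums, the values were 0.38, 0.49 and 0.47, none called. With a trend on GC content and exon length removed from each library they were 0.42 (SE 0.11, adjusted p = 0.0729) for Cct3, 0.47 (SE 0.12, adjusted p = 0.0599) for Hsp90aa1 and 0.47 (SE 0.14, adjusted p = 0.0868) for Hsp90ab1.

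Among Hsp70 genes no member was called. Hspa5 had 1652, 1806 and 1576 CPM in male KO, 1305, 1334 and 1284 CPM in male FL, 925, 1723 and 1256 CPM in female KO and 1545, 1570 and 1438 CPM in female FL libraries. All male KO libraries lay above all male FL libraries, while female KO 1 and 3 were the lowest females and female KO 2 the highest. Males gave a log2 fold change of 0.36 (SE 0.18, adjusted p = 0.675) for Hspa5, females -0.22 (SE 0.18, adjusted p = 0.481) and both together 0.07 (SE 0.13, adjusted p = 0.772). Without female KO 1 and 3 the value over both sexes was 0.27 (SE 0.07, adjusted p = 0.147). Hspa8 had 676, 520 and 699 CPM in male KO, 555, 547 and 500 CPM in male FL, 666, 524 and 624 CPM in female KO and 491, 579 and 508 CPM in female FL libraries. KO and FL overlapped in both sexes, and the log2 fold change was 0.22 (SE 0.10, adjusted p = 0.232). Hspa4l, of the Hsp110 kind, had a log2 fold change of -0.11 (SE 0.14) and Hspa2, best known from testis, one of -0.43 (SE 0.36).

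Hspa12b, a divergent Hsp70 known from endothelium, had the most negative value of the Hspa genes, at low levels: 2.14, 2.78 and 3.04 CPM in male KO, 3.66, 2.87 and 2.36 CPM in male FL, 0.905, 2.07 and 1.11 CPM in female KO and 2.84, 3.32 and 4.53 CPM in female FL libraries. The females did not overlap and the males did, with a log2 fold change of -1.39 (SE 0.34, adjusted p = 0.101) in females and -0.16 (SE 0.33) in males. The difference between the sexes of -1.23 (SE 0.47) had an adjusted p of 0.892. Hspa1l shares 1778 exonic bases with a gene of the other strand and is uncertain. On the minus strand Hspa9, the mitochondrial Hsp70, averaged 6.54 CPM, Hspa14 2.48 CPM and Hspa4 1.73 CPM, and their log2 fold changes of -0.35 (SE 0.41), 0.06 (SE 0.29) and -0.65 (SE 0.51) did not pass the test.

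The bases upstream of the start bear on how ER chaperone genes are grouped. The ER stress element, CCAAT and CCACG with 9 bases of any kind between them, is bound by factors of the unfolded protein response. It was searched for on both strands in the 250 bases before each start in the RefSeq promoter table (GRCm38.p6), which held 45 of the 55 members and had no entry for Cct4, Dnajc11, Dnajc12, Dnajc2, Dnajc30, Dnajc5, Hsp90aa1, Hsp90ab1, Hspa8 and Hspa9. It was present for 3 of the 45 (6.67%), namely Hspa5, Hsp90b1 and Dnajc3, beside 0.13% of 27025 genes. The stretches around it are shown with the element in capitals, for Hspa5 on the plus strand (chr2:34771985-34772083), Hsp90b1 on the minus strand (chr10:86705493-86705694) and Dnajc3 on the plus strand (chr14:118937787-118937885). The first base of the element lies 65 bases before the start of Hspa5, 212 and 107 before that of Hsp90b1, where the later copy reads in the other direction, and 105 before that of Dnajc3.
Hspa5: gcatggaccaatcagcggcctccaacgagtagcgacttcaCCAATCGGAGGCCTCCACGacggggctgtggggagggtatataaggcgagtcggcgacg
Hsp90b1: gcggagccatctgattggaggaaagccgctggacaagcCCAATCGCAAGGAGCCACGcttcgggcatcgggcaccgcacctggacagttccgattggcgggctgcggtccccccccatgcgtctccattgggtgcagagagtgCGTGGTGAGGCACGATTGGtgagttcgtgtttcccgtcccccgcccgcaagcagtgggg
Dnajc3: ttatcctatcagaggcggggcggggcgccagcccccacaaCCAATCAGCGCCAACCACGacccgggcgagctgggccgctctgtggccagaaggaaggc
For both plus-strand genes with the element, female KO 1 and 3 were the lowest of all libraries, as for 26.3% of plus-strand genes. In males the 2 genes did not vary alike. Dnajc3, an ER J-domain protein that restrains stress signalling by the kinase Perk, had 93.5, 117 and 398 CPM in male KO, 188, 316 and 143 CPM in male FL, 53.5, 84.1 and 45.9 CPM in female KO and 66.3, 113 and 100.3 CPM in female FL libraries. Its highest values were in male KO 3 and male FL 2, where Hspa5 was at 1576 and 1334 CPM, inside the range of its other male libraries. The log2 fold change of Dnajc3 was -0.35 (SE 0.37, adjusted p = 0.616).

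The mitochondrial chaperonin pair was slightly higher in KO means. Hspe1, on the plus strand, had 110.0, 104 and 101 CPM in male KO, 89.5, 87.7 and 66.1 CPM in male FL, 87.7, 90.3 and 84.6 CPM in female KO and 76.3, 85.2 and 82.5 CPM in female FL libraries. Males did not overlap and females overlapped by 1 library, and the log2 fold change was 0.24 (SE 0.09, adjusted p = 0.194). Hspd1, its minus-strand partner, averaged 204 ± 39.5 CPM in male KO, 155 ± 10.9 CPM in male FL, 211 ± 20.0 CPM in female KO and 181 ± 14.2 CPM in female FL libraries (SD, n = 3 each). The log2 fold change of 0.31 (SE 0.11) had an adjusted p of 0.135. The pair shares 112 exonic bases between the strands in the annotation and is read outward from a common promoter, so their values are uncertain to that extent. Hsph1, an Hsp110, averaged 1.12 CPM with a log2 fold change of -0.26 (SE 0.40).

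Heat shock factors bind units of GAA and its reverse complement TTC that alternate with 2 bases of any kind between them. A run of 3 such units, beginning with either, was searched for in the 250 bases before each start. It was present for Hspe1, Hspd1 and Dnajb6, 3 of 45 members (6.67%), beside 0.514% of genes. Hspe1 and Hspd1 have a common promoter, so the same run may be counted for both, and the 3 members need not be separate occurrences. A run of 2 units, which lies within each longer run, was present for 11 members (24.4%), beside 14.5% of genes. Shown with the 3-unit runs in capitals are Hspe1 (plus strand, chr1:55088019-55088116), whose overlapping runs begin 89 and 84 bases before the start, and Dnajb6 (plus strand, chr5:29735812-29735897), whose run begins 46 bases before it.
Hspe1: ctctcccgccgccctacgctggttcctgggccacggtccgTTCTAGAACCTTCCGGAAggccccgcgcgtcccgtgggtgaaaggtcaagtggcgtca
Dnajb6: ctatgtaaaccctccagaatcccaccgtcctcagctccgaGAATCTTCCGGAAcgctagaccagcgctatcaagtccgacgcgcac
The genes with the 3-unit run differed in their values. Dnajb6, which keeps aggregation-prone proteins apart, had 98.1, 93.6 and 98.5 CPM in male KO, 115, 118 and 97.5 CPM in male FL, 27.0, 92.9 and 35.6 CPM in female KO and 74.4, 112 and 113 CPM in female FL libraries. Its log2 fold change of -0.56 (SE 0.27, adjusted p = 0.268) was negative, whereas those of Hspe1 and Hspd1 were positive. Dnajb6 shares 249 exonic bases with the other strand and is uncertain for that.

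The 7 Dnajb genes, all on the plus strand, were low in female KO 1 and 3 except for Dnajb14. It had 21.2 and 21.3 CPM there and 17.8 to 22.7 CPM in female FL libraries. Dnajb14 shares 99 exonic bases with the other strand and is uncertain for that. The median deviation of the 7 genes from their own means was -1.60 and -1.20 on the log2 scale in female KO 1 and 3, against 0.02 in female KO 2. Dnajb1, the heat-inducible partner of cytosolic Hsp70, had 352, 240 and 465 CPM in male KO, 567, 432 and 340 CPM in male FL, 39.8, 217 and 61.6 CPM in female KO and 160, 382 and 338 CPM in female FL libraries. Female KO 1 and 3 were the lowest of all 12, female KO 2 lay above female FL 1, and KO and FL overlapped in both sexes. Over both sexes the log2 fold change of Dnajb1 was -0.90 (SE 0.40, adjusted p = 0.243), with -0.34 (SE 0.57) among males and -1.47 (SE 0.58, adjusted p = 0.225) among females. Dnajb11, an ER partner of Hspa5, had 280, 304 and 327 CPM in male KO, 274, 278 and 285 CPM in male FL, 60.5, 271 and 73.3 CPM in female KO and 173, 272 and 266 CPM in female FL libraries. In its case female KO 2 was at the level of female FL 2 and 3, and the log2 fold change was 0.12 (SE 0.46) in males and -0.82 (SE 0.47) in females.

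Of the 7 Dnajb genes, 6 had negative log2 fold changes over both sexes, with a median of -0.52, and none was called. Dnajb5 had -0.77 (SE 0.26, adjusted p = 0.135), Dnajb2 -0.52 (SE 0.23) and the ER membrane protein Dnajb12 -0.34 (SE 0.14), while its relative Dnajb14 had 0.24 (SE 0.15). Summed CPM of the 7 genes was 192 in female KO 1, 717 in female KO 2 and 253 in female KO 3, against 542 to 920 in female FL libraries. In males the sums were 784 to 1067 in KO and 896 to 1135 in FL libraries. Without female KO 1 and 3 the log2 fold change over both sexes was -0.39 (SE 0.31) for Dnajb1, 0.15 (SE 0.14) for Dnajb11, -0.37 (SE 0.17) for Dnajb5 and -0.14 (SE 0.14) for Dnajb6. When female KO 2 was left out instead, these values were -1.42, -0.84, -1.08 and -0.92, all with adjusted p under the threshold. That omission leaves female KO 1 and 3 as the only female KO libraries, and with it 22.6% of all 13029 genes tested were called, 14.3% with KO lower.

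The Dnaja genes, the cytosolic and mitochondrial partners of Hsp70 most like the bacterial DnaJ, gave no call. Dnaja1, Dnaja3 and Dnaja4 share 857, 153 and 1581 exonic bases with the other strand and are uncertain for that. Dnaja1 averaged 347 CPM over the 12 libraries with a log2 fold change of 0.07 (SE 0.13, adjusted p = 0.778). Dnaja3, the mitochondrial member, had 170, 168 and 169 CPM in male KO, 146, 155 and 162 CPM in male FL, 66.03, 165 and 76.9 CPM in female KO and 132, 161 and 155 CPM in female FL libraries. The males did not overlap, with KO higher, and female KO 1 and 3 were again the lowest of all. Dnaja4 was the member that varied most: 9.50, 8.86 and 80.2 CPM in male KO, 15.04, 29.8 and 10.3 CPM in male FL, 4.95, 7.65 and 2.51 CPM in female KO and 6.75, 10.6 and 7.10 CPM in female FL libraries. Male KO 3 alone stood far above the rest, the highest and lowest libraries differed 32.0-fold, and the log2 fold change was 0.08 (SE 0.57, adjusted p = 0.951). Dnaja4 and Dnajc3 both had male KO 3 highest and male FL 2 second. Dnaja2, on the minus strand at 3.27 CPM, had a log2 fold change of -0.66 (SE 0.26, adjusted p = 0.197).

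The Dnajc genes, whose products carry a J domain joined to other parts, went both ways. Dnajc5, the cysteine string protein of vesicles, had 342, 341 and 464 CPM in male KO, 548, 501 and 525 CPM in male FL, 83.2, 293 and 90.7 CPM in female KO and 225, 412 and 411 CPM in female FL libraries. All male KO libraries lay below all male FL libraries, female KO 1 and 3 were the lowest of all, and the log2 fold change was -0.81 (SE 0.31, adjusted p = 0.180). Dnajc12 had 38.1, 26.1 and 28.5 CPM in male KO, 28.1, 28.02 and 23.9 CPM in male FL, 46.5, 32.6 and 42.4 CPM in female KO and 28.4, 28.4 and 27.8 CPM in female FL libraries. Its females did not overlap, with KO higher, its males did, and the log2 fold change was 0.37 (SE 0.13, adjusted p = 0.164). Dnajc11, a mitochondrial protein, had 261, 203 and 262 CPM in female KO and 209, 173 and 187 CPM in female FL libraries, with a log2 fold change of 0.35 (SE 0.13, adjusted p = 0.204) in females and 0.02 (SE 0.13) in males.

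Other abundant Dnajc genes varied little. Dnajc14 averaged 407 CPM with a log2 fold change of 0.11 (SE 0.07), Dnajc10, the ER reductase, 338 CPM with 0.08 (SE 0.07), and Dnajc8, a splicing-related protein, 216 CPM with 0.10 (SE 0.10). Dnajc14 and Dnajc30 share 1252 and 436 exonic bases with the other strand and are uncertain for that. Dnajc30 and Dnajc27 had log2 fold changes of -1.05 (SE 0.53) and -0.85 (SE 0.46) in females and 0.07 (SE 0.52) and -0.32 (SE 0.45) in males. Dnajc6, auxilin of clathrin uncoating, ran the other way, with -0.77 (SE 0.36) in males and 0.30 (SE 0.36) in females, at a mean of 9.92 CPM. On the minus strand Dnajc13, an endosomal protein, had 3.46, 3.44 and 3.46 CPM in male KO, 5.59, 4.73 and 4.17 CPM in male FL, 1.75, 2.79 and 2.58 CPM in female KO and 3.92, 6.49 and 4.16 CPM in female FL libraries. It was the only minus-strand member with KO below FL and no overlap in both sexes (5.26% of 19, beside 1.05% of minus-strand genes), and its log2 fold change of -0.76 (SE 0.18) had an adjusted p of 0.0520. Dnajc15, which acts at the mitochondrial import channel, had 0.63 (SE 0.21, adjusted p = 0.127) at a mean of 3.86 CPM, and the ribosome-bound Dnajc2 had -0.64 (SE 0.35) at 38.2 CPM. Dnajc7 and Dnajc19 averaged 9.92 and 4.02 CPM, with log2 fold changes of 0.04 (SE 0.14) and 0.12 (SE 0.16).

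The small heat shock protein gene Hspb6 had 7.74, 10.8 and 8.43 CPM in male KO, 8.97, 10.5 and 12.5 CPM in male FL, 8.57, 10.3 and 10.03 CPM in female KO and 12.4, 9.82 and 11.9 CPM in female FL libraries. KO and FL overlapped in both sexes and the log2 fold change was -0.24 (SE 0.14, adjusted p = 0.352). Hspbap1 at 105 CPM and Hspb11 at 18.9 CPM had log2 fold changes of -0.12 (SE 0.09) and -0.07 (SE 0.12), and Hspbp1, on the minus strand, one of -0.14 (SE 0.27). Hspb6 and Hspbap1 share 125 and 430 exonic bases with the other strand and are uncertain for that.

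Within each sex alone, separation of KO and FL libraries was described by counts. In males KO lay above FL without overlap for 8 of 36 plus-strand members (22.2%), beside 9.41% of plus-strand genes: Cct3, Cct4, Cct6a, Cct7, Dnaja3, Dnajc14, Hspa5 and Hspe1. KO lay below FL for 4 (11.1%), beside 6.4%: Dnajb2, Dnajc5, Dnajc6 and Hspbap1. In females KO was the higher group for 5 (13.9%), beside 16.9%: Cct3, Cct7, Tcp1, Dnajc10 and Dnajc12. It was the lower group for 3 (8.33%), beside 9.44%: Dnajb5, Dnajb12 and Hspa12b. The female shares were thus near the background. No plus-strand member lay below FL in both sexes, beside 2.02% of genes. Among the 19 minus-strand members KO was higher for 3 in males (15.8%, beside 4.32%) and 5 in females (26.3%, beside 9.89%), and lower for 1 in males (5.26%, beside 5.19%) and 3 in females (15.8%, beside 10.7%).

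**Figure D4:**
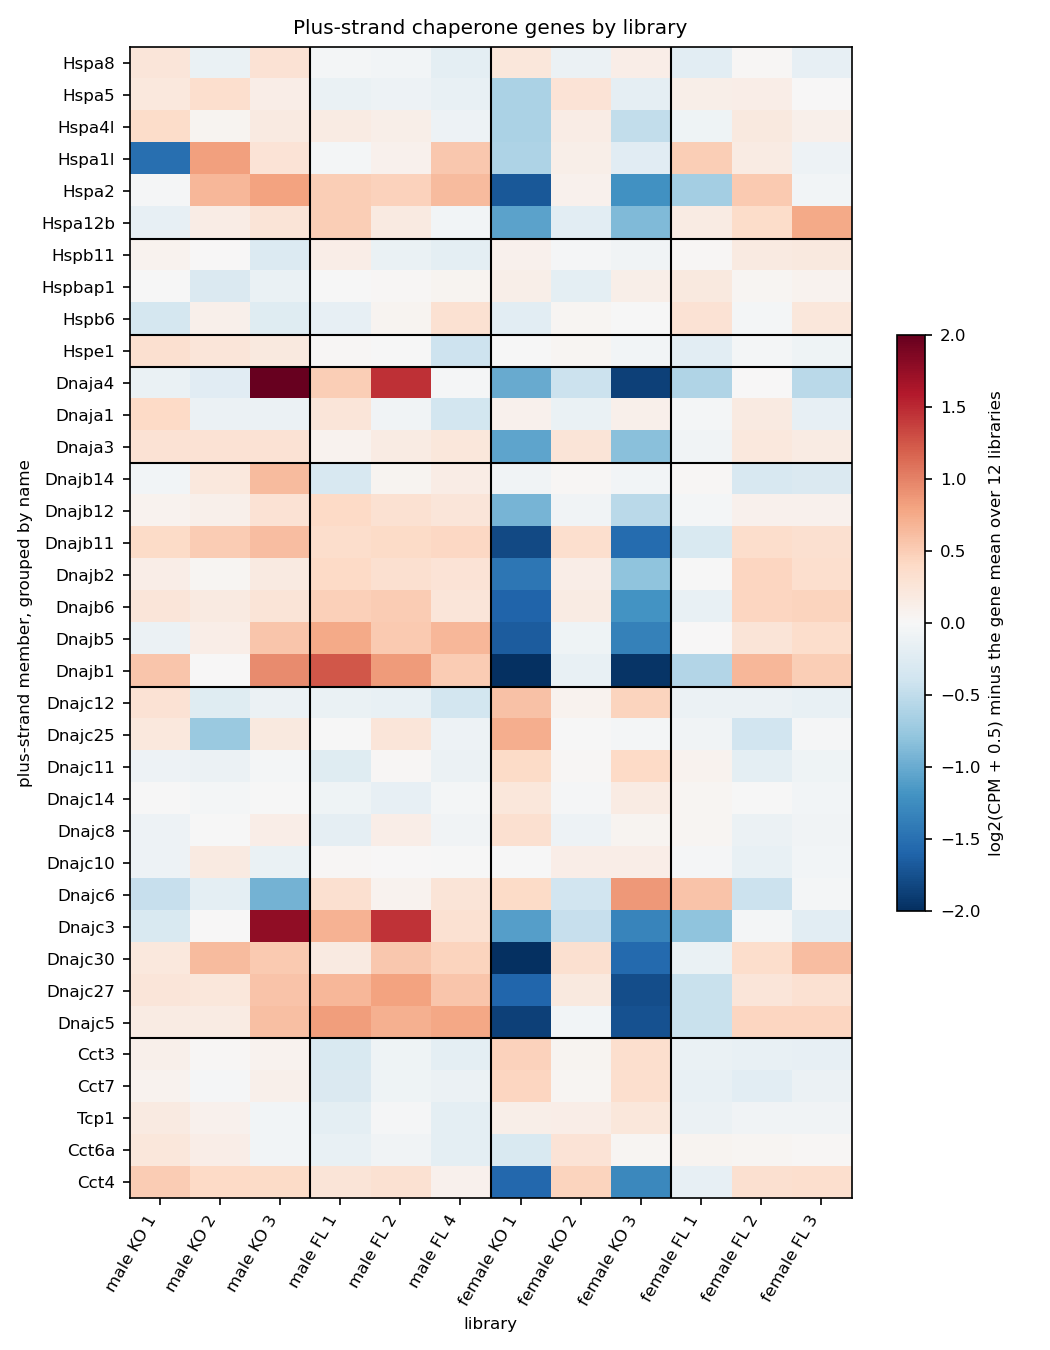
Plus-strand members (rows, by name group) in the 12 libraries (columns, KO left of FL within each sex), coloured by log2(CPM + 0.5) minus the mean of the gene over the 12 libraries. Female KO 1 and 3 are blue for most Dnajb genes, Dnajc5, Dnajc27, Dnajc30 and Cct4 and red for Cct3, Cct7, Dnajc11 and Dnajc12, and male KO 3 is red for Dnaja4 and Dnajc3.

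Across the plus-strand members, female KO 1 and 3 were both below each of the other 10 libraries for 17 of 36 (47.2%), beside 26.3% of plus-strand genes tested. They were both above each of the other 10 for 5 of 36 (13.9%): Cct3, Cct7, Dnajc11, Dnajc12 and Dnajc14, beside 15% of plus-strand genes. The 17 included 6 of the 7 Dnajb genes, Dnajc3, Dnajc5, Dnajc27, Dnajc30, Dnaja3, Dnaja4, Cct4, Hspa2, Hspa4l, Hspa5 and Hspa12b. The median GC content of the exons was 50.6% for the 17 and 45.5% for the other 19 plus-strand members. On the minus strand they were both lowest for 7 of 19 members (36.8%), beside 22.2% of minus-strand genes, and both highest for 4 (21.1%), beside 14.6%. The part of the mitochondrial share of counts in these values was not tested. The median deviation of the 36 genes from their own means, on the log2 scale, was -0.46 in female KO 1 and -0.13 in female KO 3, against -0.07 to 0.19 in the other libraries. Without both libraries, the median log2 fold change of KO over FL over both sexes was 0.04 for the plus-strand members.

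Whether KO over FL differed by sex was tested as the female minus the male log2 fold change, and edgeR called no member, beside 0% of all 12411 genes. At an unadjusted p under 0.05 were 2 plus-strand members, beside 2.78% of plus-strand genes, and 2 minus-strand members, beside 2.56% of minus-strand genes. DESeq2 called no member, beside 0% of all genes, and limma-voom called 10, beside 8.5%. The difference ran below 0, that is lower in the female contrast, for 24 of 36 plus-strand members, with a median of -0.31 beside -0.05 over all genes. The most negative were Dnaja4 at -1.53 (SE 1.14) on the plus strand and Hsph1 at -1.83 (SE 0.81) on the minus strand, both with an adjusted p of 0.892. The lean below 0 on the plus strand was absent with female KO 1 and 3 left out, which leaves 1 female KO library. The difference then ran below 0 for 18 of 36 plus-strand members, with a median of -0.007 beside -0.012 over all genes.

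**Figure D5:**
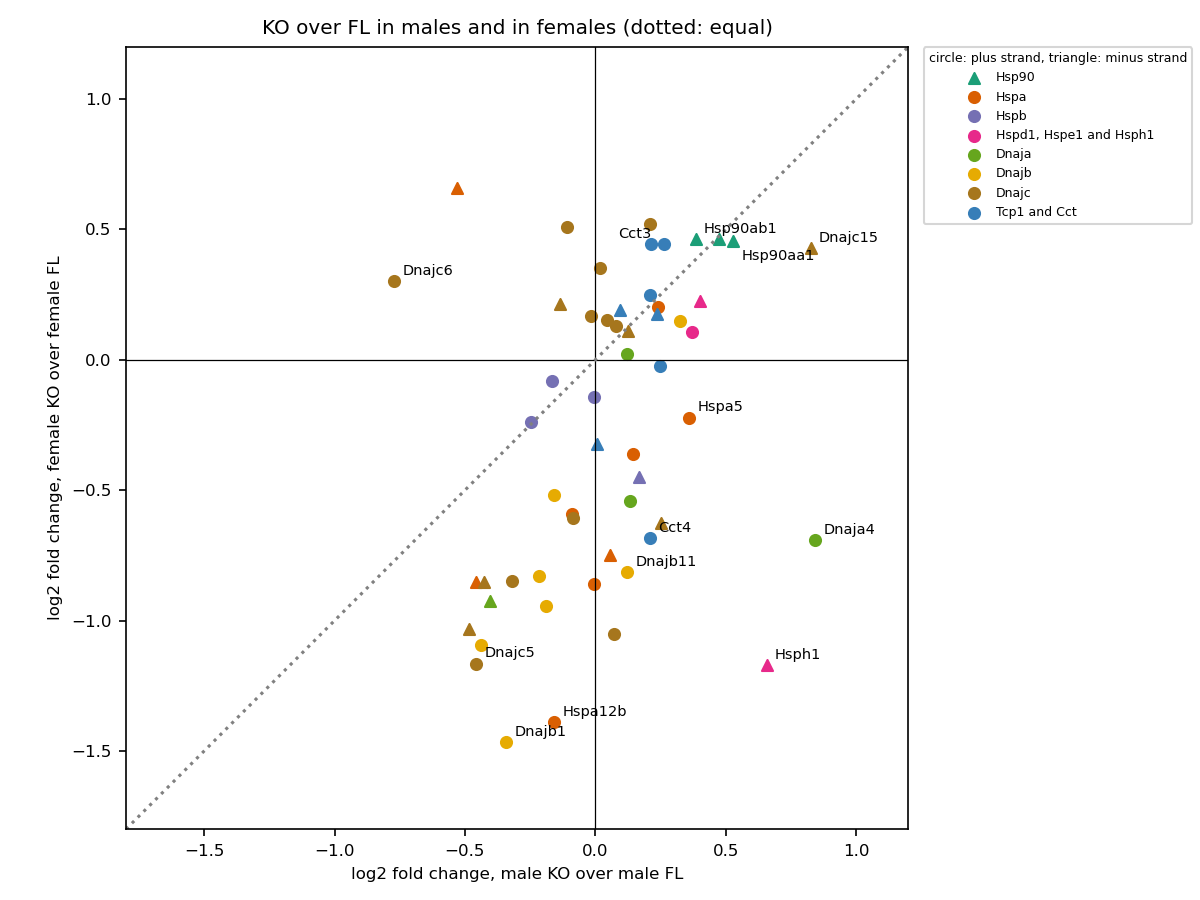
Log2 fold change of male KO over male FL (horizontal) against female KO over female FL (vertical) for the 55 members, circles for the plus strand and triangles for the minus strand, coloured by name group. Cct3 and both cytosolic Hsp90 genes lie above 0 on both axes, and Dnajb1, Hspa12b and Dnajc5 lie lowest on the female axis among plus-strand members.

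Genes that work with these chaperones were read from lists of the pathway. Of the 6 heat shock factors and their regulators, 4 were tested and none was called, with a median log2 fold change of -0.01. The most abundant, Hsbp1, which binds heat shock factor trimers, had 0.17 (SE 0.09). Hsf1, the main heat shock factor, was singled out after its values were seen: it had 172, 165 and 267 CPM in male KO, 281, 263 and 249 CPM in male FL, 22.9, 145 and 34.5 CPM in female KO and 110, 223 and 213 CPM in female FL libraries. The log2 fold change of -0.91 (SE 0.41) had an adjusted p of 0.243. Female KO 1 and 3 were the lowest libraries of Hsf1 as of Dnajb1, and as of 26.3% of plus-strand genes tested. A link between Hsf1 and Dnajb1 was not tested. Of 25 tested cochaperones of Hsp90 and Hsp70, 9 lay above 0, with a median of -0.12 and no call. Those were 7 of 14 plus-strand genes (median -0.06) and 2 of 11 minus-strand genes (median -0.12). The most abundant, the immunophilin Fkbp8, had -0.37 (SE 0.19). All 9 tested prefoldin and phosducin-like genes, whose products hand clients to the cytosolic chaperonin, lay above 0, with a median of 0.28 and no call. Vbp1, the most abundant, had 0.52 (SE 0.19, adjusted p = 0.168).

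Of 22 tested genes of ER folding and the unfolded protein response, 2 rose and none fell, beside 3.31% of all tested genes called and 2.68% with KO higher. Pdia6, a protein disulfide isomerase, had 520, 684 and 586 CPM in male KO, 382, 421 and 537 CPM in male FL, 671, 553 and 671 CPM in female KO and 465, 403 and 411 CPM in female FL libraries. Males overlapped by 1 library and females did not overlap, and the log2 fold change was 0.49 (SE 0.11, adjusted p = 0.0348). Ppib, an ER cyclophilin, averaged 470 ± 19.2 CPM in male KO, 373 ± 35.5 CPM in male FL, 430 ± 9.13 CPM in female KO and 368 ± 11.8 CPM in female FL libraries (SD, n = 3 each), with 0.28 (SE 0.07, adjusted p = 0.0461). The median of the 22 was -0.20, with 6 above 0. It was -0.26 over 12 plus-strand genes, 4 of them above 0, and -0.13 over 10 minus-strand genes, 2 of them above 0. Of 36 tested proteasome genes 25 lay above 0, with a median of 0.22 and no call. The strands differed: 21 of 24 plus-strand genes lay above 0 (median 0.28) and 4 of 12 minus-strand genes (median -0.05). Psmd2, the most abundant, had 0.24 (SE 0.07, adjusted p = 0.102). Of 11 mitochondrial chaperones and proteases 4 lay above 0 with a median of -0.18, where Yme1l1 had 0.25 (SE 0.13). On the plus strand 1 of 7 did (median -0.24) and on the minus strand 3 of 4 (median 0.33). The median of the 11 was 0.13 in males and -0.46 in females. Of 10 immediate early genes, all on the plus strand, 5 lay above 0 with a median of -0.04, where Nr4a1 had -0.38 (SE 0.14). Their median was 0.22 in males and -0.50 in females. The medians over both sexes stand beside -0.02 over all tested genes, -0.005 over plus-strand genes and -0.09 over minus-strand genes. Those of males and females stand beside 0.01 and -0.02 over all tested genes. The female contrast was the wider: the quartiles over all tested genes were -0.50 and 0.31 in females and -0.22 and 0.23 in males. The part of female KO 1 and 3 in the list medians was not tested.

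Foxp3 itself had 1878, 1462 and 2037 CPM in male KO, 2675, 2588 and 2227 CPM in male FL, 685, 1824 and 825 CPM in female KO and 2582, 2658 and 2657 CPM in female FL libraries, with a log2 fold change of -0.86 (SE 0.22, adjusted p = 0.0600). It was lower in every KO library than in every FL library of its sex, and female KO 1 and 3 were its lowest libraries too. The called Treg markers Gpr83 (-0.74, SE 0.09), Itgae (1.06, SE 0.15), Capg (0.80, SE 0.12) and Ctla4 (0.50, SE 0.12) were 4 of 13, beside 3.31% of all tested genes. No gene was called among the markers of T cells (9 tested), double-positive thymocytes (7), myeloid and dendritic cells (16), B cells (2), thymic epithelium (4), erythroid cells (3) or NK cells (3), where the most abundant were Trac at 0.20 (SE 0.08), Themis at 0.04 (SE 0.14), Cd74 at 0.87 (SE 0.73), Cd79a at 0.54 (SE 0.38), Krt18 at 1.33 (SE 0.64), Hba-a1 at 0.33 (SE 0.66) and Prf1 at -0.01 (SE 0.11). Summed levels of the 8 B cell markers were at most 62.8 CPM in any library.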

How the data were processed

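Total RNA of 12 libraries was prepared with SMARTer Stranded kits, per the labels' protocols. The authors deposited raw read counts per gene. The submitters' processing notes list HTSeq 0.6.1p1, STAR (2.3.0e and 2.5.2b) and CASAVA as tools and mm9 as build, with no role for each; the annotation and strand setting are not given in the sources used here. Library totals were 12423340 to 30244500 counts, and counting error limits low genes. Summary rows that name no gene entered neither library sizes nor tests; they held 44.3 to 46.9% (no feature), 14.1 to 17.3% (not unique), 4.73 to 8.01% (not aligned) and 0.584 to 0.678% (ambiguous) of a library. Strand, GC content and exon length came from GENCODE release M21 by symbol, which matched 54510 of 55453 genes; being on a later build than mm9, it gave no gene coordinates. Promoter sequences are those of RefSeq and its own build.

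Genes were filtered with filterByExpr (12411 of 29806 with reads; all 55 members passed, 14 of the plus-strand and 7 of the minus-strand ones sharing exonic bases with the other strand), scaled by TMM and fitted with edgeR 4.0.16 in R 4.3.3, 1 mean per group, quasi-likelihood with robust estimation, Benjamini-Hochberg over all tested genes. "Both sexes" is the mean of the male and female contrasts, and SE is the fold change over the root of F. CPM are TMM-scaled. The pipeline was tested on simulated data. Simulated 2-fold differences were detected at a rate of 29.2% in the combined contrast, 4.62% in males and 9.23% in females. At 1.5-fold the rates were 1.52%, 0% and 0%, and at 4-fold they were 83.9%, 56.5% and 54.8%. False calls numbered 2, 0 and 1. The changed genes were drawn at random from all tested genes, so these rates are averages over genes of unlike spread. A missing call, above all within 1 sex, thus says little by itself about differences of 2-fold or less. The SE of a member tells more about that member, and over both sexes it was 0.07 for Dnajc14 and 0.57 for Dnaja4. Within each group every pair of libraries differed by more than sampling noise. The alternatives, 26 in all, were RLE, DESeq2 1.42.0, limma-voom (limma 3.58.1) with quality weights, other low-count filters, the replicate number as a block, plus-strand genes, a GC and length trend removed (mgcv 1.9.3), libraries of 1 sex, and libraries left out singly or in pairs; omitting male KO 2 with male FL 4, and genes sharing exons with the other strand, were added after seeing the data.

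Members and the 15 gene lists were chosen with earlier results of these data known. Named by rule were called members, the 3 most abundant members of each name group per strand, the 4 highest and 4 lowest fold changes per strand, called genes of each list or else its most abundant gene, and the genes beside the CPM limit; other members named were chosen after their values were seen.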

Additional observations from a re-analysis of the deposited data

How the results depend on the processing

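Of 55 members, 3 were called over both sexes, beside 411 of 12411 genes, and counts of all genes follow in brackets. With RLE 3 were called (392 of 12411), and with at least 5 CPM in 3 libraries 3 of 42 (401 of 7423). DESeq2 called 7 (1129 of 12411), limma-voom 28 (4656 of 12411) and the fit with no filter 1 (360 of 29806). Among plus-strand genes, which leave out both Hsp90 genes by construction, 1 of 36 was called (385 of 9473). Among plus-strand genes without exons of the other strand it was 1 of 22 (294 of 6400). The count was 0 with the GC and length trend removed (396 of 12411) and 0 without male FL 4 and male KO 2 (298 of 12745). With single libraries left out it was 0 to 25. The 25 came without female KO 2. In males, where none was called, DESeq2 and limma-voom gave 1 each. In females DESeq2 gave 6, limma-voom 33 and single libraries left out 0 to 25. For the difference of the sexes limma-voom gave 10 and single libraries left out 0 to 13. Over all genes, 411 were called over both sexes in the main analysis, 1129 with DESeq2, 4656 with limma-voom, 44 without female KO 1 and 3, and 98 to 2940 with single libraries left out. In males the 3 called genes became 235 with DESeq2, 178 with limma-voom, 26 with no filter, 0 among plus-strand genes, 0 with the trend removed, 11 without female KO 1 and 3, 0 in the fit of males only, 0 without male FL 4 and male KO 2, and 0 to 35 with single libraries left out. In females 25 became 706 with DESeq2, 5462 with limma-voom, 94 with no filter, 50 at 5 CPM, 9 with the trend removed, 0 without female KO 1 and 3, 0 in the fit of females only, 63 without male FL 4 and male KO 2, 16 among plus-strand genes without other-strand exons, and 0 to 3089 with single libraries left out. For the difference, 0 became 1055 with limma-voom and 0 to 1108 with single libraries left out. The cause of these changes was not tested. Whether replicate numbers pair the libraries is not given in the labels. In deviations from their group means, same-numbered KO and FL libraries correlated at 0.442 and -0.614 in males and 0.189, 0.279 and -0.225 in females. With 3 libraries per group these values cannot decide it. With the number as a block, 5 of 55 members were called over both sexes, Hsp90aa1 up, and Dnaja2, Dnajb1, Dnajc13 and Dnajc3 down. That stands beside 1218 of 12411 genes, against 0 genes in males and 0 in females. With the block and the trend removed together, 11 of 55 members and 1861 of 12411 genes were called over both sexes. Calls were 1 member and 274 genes in males, and 1 member and 262 genes in females. Dnaja4 turned to -0.93 (adjusted p = 0.0323). Counts of low members, such as the 5 to 35 reads of Hsph1 per library, limit what could be detected. Simulated differences of 2-fold or less were also mostly missed, over both sexes and within each sex.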
